A study of Homo sapiens with 6 samples.

Results

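The 10 cyclins that drive the phases of the cell division cycle (CCNA1, CCNA2, CCNB1, CCNB2, CCND1, CCND2, CCND3, CCNE1, CCNE2 and CCNF) were selected by gene symbol from the 29710 genes of the deposited read table. All 10 had enough reads to be tested. The libraries came from MDA-MB-231 cells, an established triple-negative breast cancer line. In 3 of them the cells overexpressed FLAG-tagged SRPK2, a kinase of serine- and arginine-rich splicing factors, and in the other 3 they carried an empty vector. The replicates are called biological in the series' design text. The labels do not say whether the cells were a pool or 1 clone, how the construct was delivered or how long it was expressed, and they name no batch.

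Cyclins are the regulatory subunits of cyclin-dependent kinases (CDKs), and their periodic synthesis and destruction set the order of the cell cycle. D-type cyclins bind CDK4 and CDK6 in G1 in response to growth signals and start the phosphorylation of the retinoblastoma protein. E-type cyclins bind CDK2 at the entry into S phase, A-type cyclins bind CDK2 and CDK1 in S phase and G2, and B-type cyclins bind CDK1 in mitosis. CCNF encodes the substrate receptor of a ubiquitin ligase and does not activate a CDK. SRPK2 has been reported to raise cyclin A1 and cyclin D1 in other cells. That question is put to these libraries here at the level of mRNA only, since cyclin protein was not measured.

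None of the 10 cyclins passed the threshold in the main fit, which did not pair the libraries. With a block for replicate number CCNB1, CCNB2 and CCND2 passed, in a fit that called 23.6% of all tested genes. The transcript of CCND1 was at 453 ± 21.0 CPM (reads scaled to library size; SD, n = 3) with the empty vector and at 455 ± 17.1 CPM (SD, n = 3) with SRPK2. CCNA1 was at 5.10 ± 0.83 and 5.34 ± 0.57 CPM (SD, n = 3 each). CCNA2, CCNB1 and CCNB2, the cyclins of late S phase, G2 and mitosis, had fold changes between 0.941 and 0.965. CCND2, which was barely expressed, had the lowest fold change, 0.737, and did not pass either. Across all genes, 75 of 16515 tested genes, or 0.454%, passed (an adjusted p under 0.05 in the quasi-likelihood test of edgeR, with Benjamini-Hochberg adjustment over all of them), so a count of 0 among 10 genes is near that background. At an unadjusted p under 0.05 there was 1 cyclin, CCND2, beside 17.2% of all tested genes, and DESeq2 and limma-voom each called 0 cyclins as well.

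The promoters of CCNA2, CCNB1, CCNB2 and CCNF, cyclins of S phase, G2 and mitosis, are shown because matches to the motifs searched lie in them. Entries of CCND3 also hold matches but are not printed. The promoter of CCNE1 is shown because none of the motifs searched was found in it. None was found for CCNA1 either, whose promoter is not printed. Cell cycle genes that peak in G2 and mitosis are known for CCAAT boxes, bound by NF-Y, followed by a CHR element near the start, and the cyclin A2 promoter for a cAMP response element (CRE). The 150 bases before the RefSeq transcript start (GRCh38.p14) are printed 5′ to 3′ on the strand of the gene, with matches to these motifs in capitals.
CCNA2: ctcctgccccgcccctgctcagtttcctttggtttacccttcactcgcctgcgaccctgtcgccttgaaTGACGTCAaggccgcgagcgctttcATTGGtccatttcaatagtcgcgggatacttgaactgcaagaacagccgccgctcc
CCNB1: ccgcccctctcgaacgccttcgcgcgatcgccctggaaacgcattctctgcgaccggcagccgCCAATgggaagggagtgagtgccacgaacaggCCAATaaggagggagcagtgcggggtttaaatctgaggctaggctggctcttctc
CCNB2: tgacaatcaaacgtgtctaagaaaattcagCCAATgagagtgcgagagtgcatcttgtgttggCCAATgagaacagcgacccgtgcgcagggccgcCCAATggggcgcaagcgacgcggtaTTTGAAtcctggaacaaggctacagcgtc
CCNE1: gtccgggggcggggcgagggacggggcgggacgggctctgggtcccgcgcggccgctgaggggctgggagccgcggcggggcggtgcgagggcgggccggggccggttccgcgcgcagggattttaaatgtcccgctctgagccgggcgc
CCNF: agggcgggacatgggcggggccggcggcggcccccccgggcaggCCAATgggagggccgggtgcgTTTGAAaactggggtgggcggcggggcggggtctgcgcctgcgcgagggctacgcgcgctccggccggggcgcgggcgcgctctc

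These lie at chr4:121823884-121824033 on the minus strand for CCNA2, and on the plus strand at chr5:69167000-69167149 for CCNB1, chr15:59104996-59105145 for CCNB2, chr19:29811841-29811990 for CCNE1 and chr16:2429297-2429446 for CCNF. Of the 10 cyclins, 7 matched a RefSeq promoter, and in these the window searched ran from 250 bases before to 50 bases after the start, on both strands. The letters CCAAT were found for 5 cyclins (CCNA2, CCNB1, CCNB2, CCND3 and CCNF), where 34.6% of all 35093 promoters of this length hold them. In CCNA2 they lie on the opposite strand and read ATTGG, and of the 3 CCND3 entries 2 hold them. The CHR letters TTTGAA were found for CCNB2 and CCNF, beside 15.2% of all promoters. No other spelling of the CHR was searched, so a promoter without these letters is not shown to lack the element. The CRE letters TGACGTCA were found for CCNA2 alone of the 7, beside 1.85%. The E2F letters TTTCCCGC, TTTGGCGC, TTTCGCGC and TTTGCCGC were found for 0 of the 7 cyclins and in 3.32% of all promoters. Other E2F spellings were not searched, so these promoters are not shown to lack an E2F site. No match overlapped a match to another motif. These are matches of letters in a window and not measured sites.

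The libraries held between 31140537 and 36908878 reads assigned to genes, of which the 10 cyclins took 0.139% to 0.145%. SRPK2 itself stood at 37.8, 36.7 and 41.1 CPM in the controls and at 213, 248 and 294 CPM in the SRPK2 libraries, a 6.52-fold rise (log2 fold change 2.71, SE 0.10, edgeR adjusted p = 2.94e-08). In all 6 libraries the level of SRPK2 went with the label. The line's markers VIM, CD44, EGFR, AXL and CAV1 stood between 265 and 3651 CPM. The hormone receptor genes ESR1 and PGR had at most 4 reads in a library. The epithelial genes EPCAM and CDH1 stood at 13.1 to 15.5 CPM and 2.28 to 2.95 CPM. Of 14 markers of leukocytes, endothelium and fibroblasts, 6 were tested and 0 passed, and the leukocyte marker PTPRC had at most 9 reads. The summed level of the 5 fibroblast markers was 7.6 to 8.5 CPM in the controls and 9.5 to 10.9 CPM in the SRPK2 libraries, with none of the 5 at 0 in every library and PDGFRA at most at 4 reads, and its part in the results below was not tested. Since the cells are measured in bulk, fewer cells in a phase and less of a transcript per cell cannot be told apart.

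Per length of transcript the cyclins spanned a wide range, and their order was the same in all 6 libraries. In the deposited FPKM values (fragments scaled to transcript length and library size), CCNB1 was the most abundant, with a mean over the 6 libraries of 121 FPKM, followed by CCND1 at 86.6, CCNA2 at 62.9, CCND3 at 40.0 and CCNB2 at 28.7. A lower tier held CCNE1 at 9.12, CCNE2 at 7.51 and CCNF at 5.18. CCNA1, whose expression is best known from the testis and from leukaemias, had 2.11 FPKM, and CCND2 had 0.32. The ranges over the 6 libraries did not overlap between any neighbours in this order. The closest were CCNE1, at 8.56 to 9.58 FPKM, and CCNE2, at 6.76 to 8.15.

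**Figure D1:**
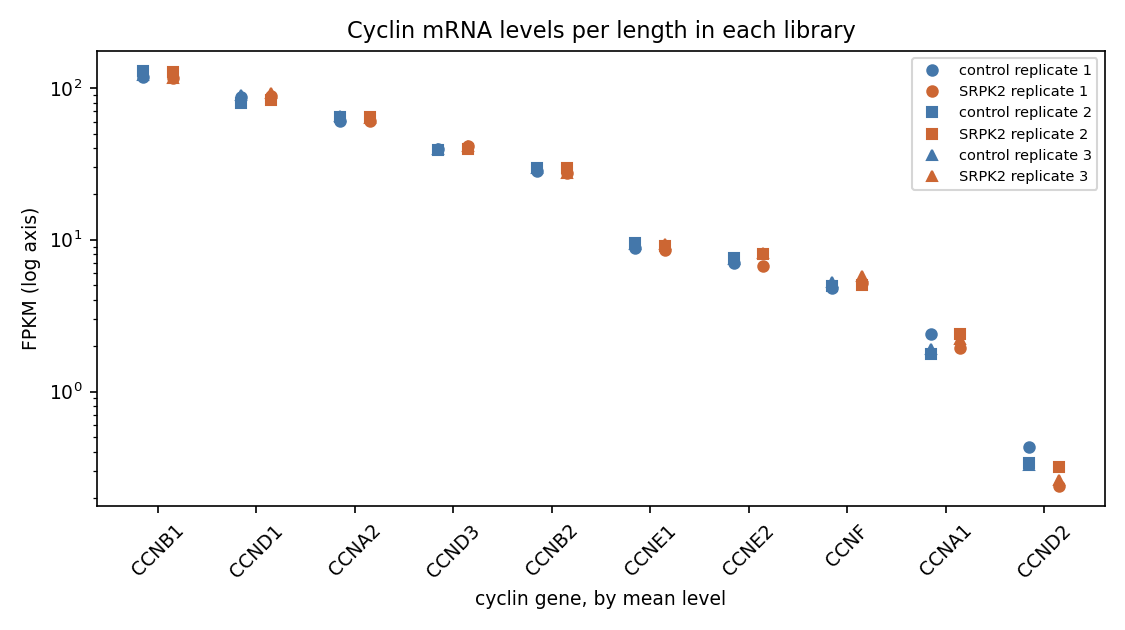
FPKM on a log axis for each of the 10 cyclins, ordered by mean level, with 1 point per library (blue for control, orange for SRPK2, symbols for replicates). The mean levels run from 121 FPKM for CCNB1 to 0.32 for CCND2. The orange and blue points of a gene overlap in range, except for CCND2, where the blue points lie higher.

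The make-up of the cyclin pool overlapped between the groups. The summed FPKM of the 10 cyclins was 364 ± 7.66 (SD, n = 3) in the controls and 363 ± 6.20 (SD, n = 3) with SRPK2. B-type cyclins made up 41.8% ± 1.36 of that sum in the controls and 40.7% ± 1.60 with SRPK2 (SD, n = 3 each). D-type cyclins made up 34.4% ± 1.58 and 35.4% ± 1.79, A-type cyclins 17.9% ± 0.21 and 17.8% ± 0.31, and E-type cyclins 4.56% ± 0.13 and 4.58% ± 0.25 (SD, n = 3 each). For each of these 4 types the libraries of the groups overlapped. No test was made on these shares.

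Among the G1 cyclins, CCND1 (ENSG00000110092.4, chromosome 11 from 69641087 to 69654474, plus strand, GRCh38) binds CDK4 and CDK6 and is a known oncogene in breast cancer. It stood at 461, 429 and 469 CPM in the controls and at 462, 436 and 467 CPM in the SRPK2 libraries. Replicate 2 was the lowest library of each group, and the groups overlapped almost fully. The fold change was 1.00 (log2 fold change 0.01, SE 0.06, edgeR adjusted p = 0.963), with a 95% interval from 0.923-fold to 1.09-fold. The sign of so small a value depended on the setting, and it lay below 0 with RLE size factors, with DESeq2 and after a correction for gene length. Part of the gene span is shared with LTO1 on the opposite strand.

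CCND3, which pairs with the same kinases and is best known from lymphoid cells, was the steadiest of the cyclins. It stood at 254, 254 and 251 CPM in the controls and at 260, 251 and 252 CPM with SRPK2, so that the highest library was 1.04 times the lowest. Its fold change of 1.00 (log2 fold change 0.01, SE 0.05, edgeR adjusted p = 0.953) had a 95% interval from 0.935-fold to 1.08-fold, and its sign turned with DESeq2 and after the gene length correction. The read ratio of CCND1 to CCND3, which does not depend on how libraries are scaled, was 1.79 ± 0.09 in the controls and 1.79 ± 0.06 with SRPK2 (SD, n = 3 each).

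CCND2 was the one D-type cyclin with separate groups, at a very low level. It had 134, 100 and 104 reads in the controls, or 3.81, 3.08 and 2.84 CPM. In the SRPK2 libraries it had 66, 99 and 85 reads, or 2.11, 2.83 and 2.22 CPM. The groups did not overlap, but control replicate 3 and SRPK2 replicate 2 nearly met. Such separation was found for 1 of the 10 cyclins and for 20.1% of all tested genes. The log2 fold change was -0.44 (SE 0.16, edgeR p = 0.017, adjusted p = 0.218), and an exact two-sided permutation test of log2 CPM gave p = 0.1, which is the lowest value possible with 3 libraries a group. Without SRPK2 replicate 2 the value was -0.58 and passed (edgeR adjusted p = 0.0455), in a fit that called 8.37% of all tested genes. An overlapping gene on the same strand, RP11-388F6.5, had 666 to 806 reads in a library, and the counting could have split reads between both, so the level of CCND2 is uncertain. Its own log2 fold change was -0.14 (SE 0.08, edgeR adjusted p = 0.351).

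The E-type cyclins, which activate CDK2 at the start of S phase, did not pass. CCNE1 stood at 24.3, 26.7 and 25.1 CPM in the controls and at 23.1, 24.8 and 24.4 CPM with SRPK2 (log2 fold change -0.07, SE 0.06, edgeR adjusted p = 0.551). CCNE2 stood at 34.8, 37.7 and 35.9 CPM in the controls and at 32.7, 38.9 and 38.1 CPM with SRPK2 (0.02, SE 0.07, edgeR adjusted p = 0.906). SRPK2 replicate 1 was the lowest library for both genes. The read ratio of CCNE2 to CCNE1 was 1.43, 1.41 and 1.43 with the empty vector, against 1.41, 1.57 and 1.56 with SRPK2. SRPK2 replicates 2 and 3 were thus above every control, while SRPK2 replicate 1 was level with them, and no test was made on this ratio. CCNE2 shares part of its span with INTS8 and NDUFAF6 on the opposite strand, and the counter's strand setting is not given in the sources used here.

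CCNA1, the other cyclin named in earlier reports on SRPK2, had 147 to 213 reads in a library. It stood at 6.06, 4.53 and 4.73 CPM in the controls and at 4.79, 5.92 and 5.32 CPM with SRPK2, and the groups overlapped, since the highest library was a control. The fold change was 1.05 (log2 fold change 0.07, SE 0.13, edgeR adjusted p = 0.811), with a 95% interval from 0.863-fold to 1.27-fold. This interval was wider than those of the more abundant cyclins. The log2 value was -0.01 without control replicate 2, -0.01 without SRPK2 replicate 2 and 0.21 without control replicate 1, so its sign and size rested on single libraries.

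CCNA2, the A-type cyclin of dividing somatic cells, stood at 187, 200 and 196 CPM in the controls and at 182, 195 and 184 CPM with SRPK2. Its log2 fold change was -0.05 (SE 0.05, edgeR adjusted p = 0.620), with a 95% interval from -0.16 to 0.06. EXOSC9 overlaps its span on the opposite strand. The read ratio of CCNA2 to CCNA1 ranged from 30.8 to 44.1 over the libraries, with both extremes in the controls.

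The B-type cyclins had small negative values and did not pass in the main fit, though both passed with a block for replicate number. CCNB1, the main partner of CDK1 in mitosis, stood at 321, 354 and 326 CPM in the controls and at 310, 339 and 302 CPM with SRPK2 (log2 fold change -0.07, SE 0.06, edgeR adjusted p = 0.553). CCNB2 stood at 87.3, 92.8 and 89.2 CPM in the controls and at 83.3, 89.9 and 80.0 CPM with SRPK2 (-0.09, SE 0.06, edgeR adjusted p = 0.422). For both genes SRPK2 replicate 2 lay among the controls and the other SRPK2 libraries lay below them. The 95% intervals ran from -0.21 to 0.06 for CCNB1 and from -0.21 to 0.03 for CCNB2. The read ratio of CCNB1 to CCNB2 was 3.71 ± 0.09 in the controls and 3.76 ± 0.03 with SRPK2 (SD, n = 3 each).

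CCNF, which targets proteins for destruction in G2, stood at 33.9, 35.5 and 36.5 CPM in the controls and at 35.9, 35.2 and 38.7 CPM with SRPK2. The highest library was SRPK2 replicate 3, while the other SRPK2 libraries lay within the control range. The log2 fold change was 0.05 (SE 0.06, edgeR adjusted p = 0.663), opposite in sign to those of CCNA2 and the B-type cyclins. None of these differed from 0 by the test in the main fit.

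**Figure D2:**
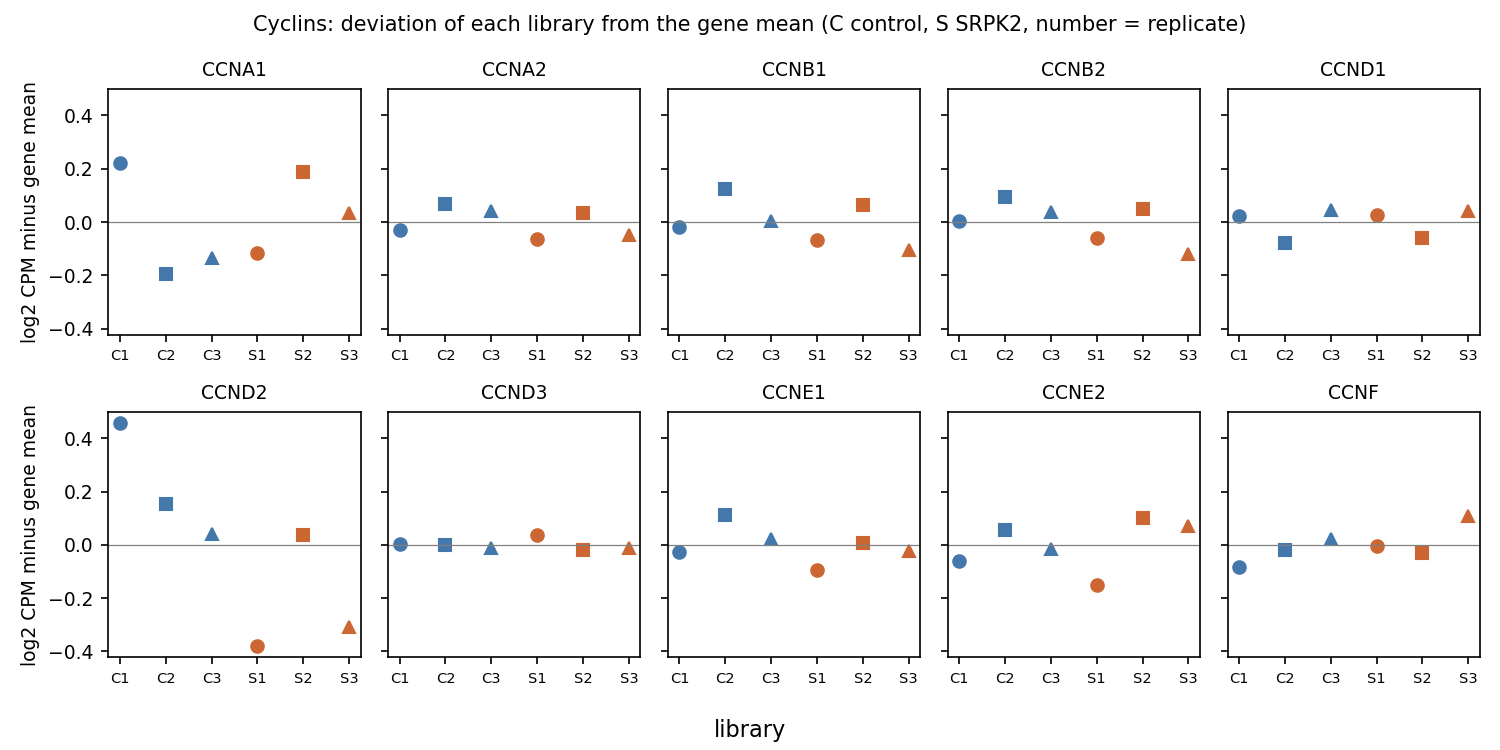
Deviation of each library's log2 CPM from the gene's mean over the 6 libraries, 1 panel per cyclin, with controls in blue, SRPK2 libraries in orange and symbols for replicates. CCND3 is nearly flat, CCND2 and CCNA1 scatter most, and CCNA2, CCNB1, CCNB2, CCNE1 and CCNE2 are highest in replicate 2 of each group, where CCND1 is lowest.

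Between libraries some cyclins varied alike. In each group replicate 2 was the highest library for CCNA2, CCNB1, CCNB2, CCNE1 and CCNE2 and the lowest for CCND1. Over the 6 libraries the smallest root mean square difference between any pair of cyclins, taken on log2 CPM deviations from the gene mean, was 0.022 for CCNB1 and CCNB2. It was 0.035 for CCNA2 and CCNB2 and 0.028 for CCNA2 and CCNE1. These deviations share the library's depth and scaling, and they describe 6 libraries only.

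By the same measure, among 11086 other genes with a mean of at least 5 CPM, those most like each cyclin were as follows. COX11 and HMGB1 came nearest to CCNB2 (0.0068 and 0.0095) and SRP9 and SKA2 to CCNB1 (0.011 and 0.012). SLC25A46 and PSMC6 came nearest to CCNA2 (0.0090 and 0.012), and NUDT4 and TNPO3 to CCND1 (0.0061 and 0.012). RAB6A and MBOAT7 came nearest to CCND3 (0.0084 and 0.0093), and MPP5 and DPY19L1 to CCNF (0.0061 and 0.010). TAF1D and TTC19 came nearest to CCNE1 (both 0.017) and RECQL and IDI1 to CCNE2 (0.020 and 0.023). For CCNA1, with its few reads, AMIGO3 and RP11-29H23.8 were nearest and much farther away (0.063 and 0.065). With so many genes and 6 libraries, near neighbours are found for almost any pattern of this size.

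Over the whole list the cyclins had values on both sides of 0. The median log2 fold change was -0.02 for the 10 cyclins and 0.00 for all tested genes, and 5 cyclins lay above 0 and 5 below. The median absolute log2 fold change was 0.06 for the cyclins and 0.10 for all tested genes. The latter include many genes with few reads, and no comparison was made at a like level of expression. Apart from CCND2 the values lay between -0.09 and 0.07, and their 95% intervals lay between -0.21 and 0.35.

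**Figure D3:**
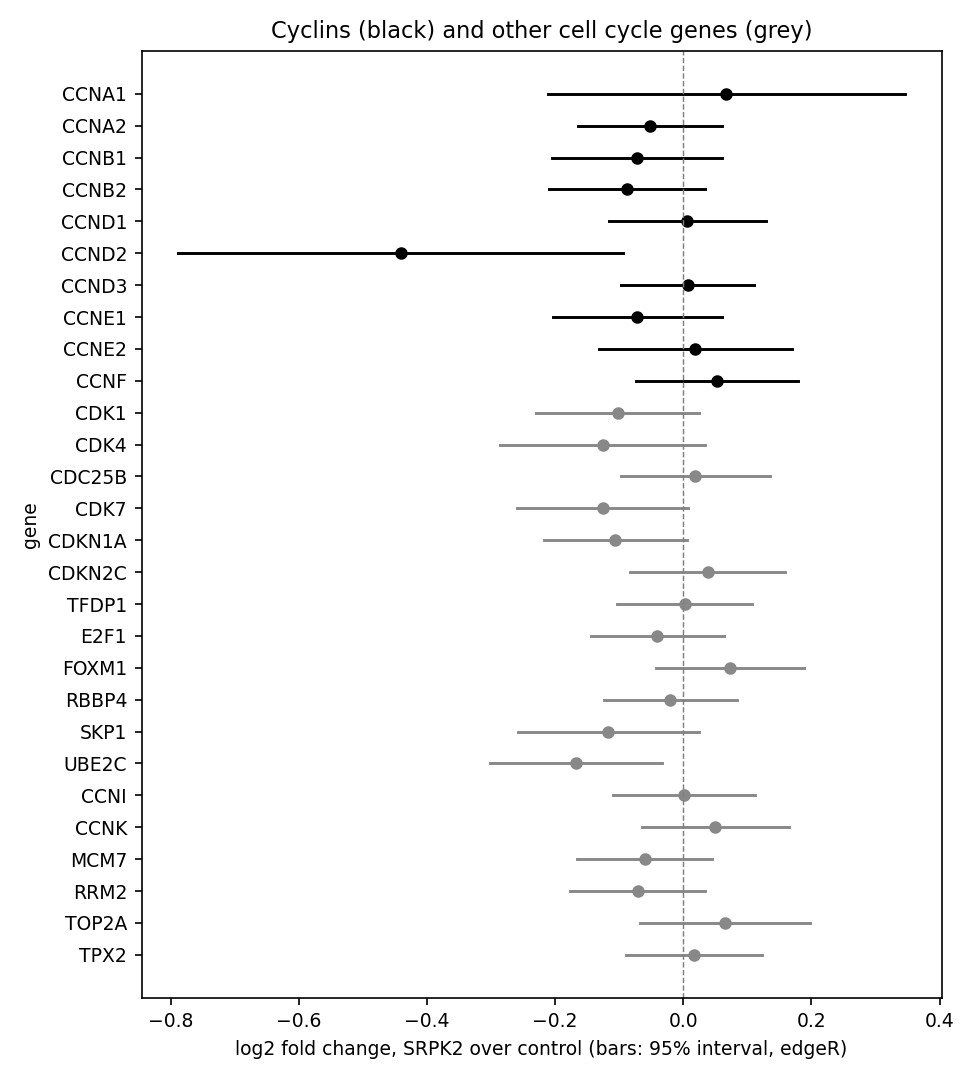
Log2 fold change of SRPK2 over control libraries with its 95% interval from edgeR, for the 10 cyclins (black) and for other named cell cycle genes (grey). The intervals of 9 cyclins cover 0, and that of CCND2 runs from -0.79 to -0.09. None of the genes passed the adjusted threshold in this fit, which had no replicate block.

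The partners and regulators of the cyclins did not pass in the main fit either. Of 119 genes on 9 fixed lists of the cell cycle machinery, 114 were tested and 0 passed, beside 0.454% of all tested genes. At an unadjusted p under 0.05 there were 21, or 18.4%, beside 17.2% of all tested genes. DESeq2 and limma-voom called 0 as well. With the replicate block 41 of the 114 passed, or 36.0%, beside 23.6% of all tested genes. The median log2 fold change of the 114 was -0.02 in the main fit.

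The 4 CDKs of the cycle had a median log2 fold change of -0.06. CDK1, the kinase of mitosis, stood at 200, 225 and 218 CPM in the controls and at 191, 210 and 198 CPM with SRPK2 (-0.10, SE 0.06, edgeR adjusted p = 0.375). Like CCNB1 it was highest in replicate 2 of each group. CDK4, the partner of D-type cyclins, had -0.13 (SE 0.07, edgeR adjusted p = 0.385). Enzymes that set the phosphates on CDKs (8 tested genes) had a median of -0.05, with the phosphatase gene CDC25B at 0.02 and the activating kinase gene CDK7 at -0.13. Of the inhibitors 5 were tested, and their median was 0.01. CDKN1A, the p53-induced inhibitor p21, stood at 124, 121 and 115 CPM in the controls and at 114, 113 and 107 CPM with SRPK2. These groups did not overlap, as for 20.1% of all tested genes, and the log2 fold change was -0.11 (SE 0.05, edgeR adjusted p = 0.308). CDKN2C, an inhibitor of CDK4 and CDK6, had 0.04. CDKN2A and CDKN2B were not analysed here.

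Upstream, the retinoblastoma and E2F factors had a median log2 fold change of 0.00 over 13 genes, with the E2F partner gene TFDP1 at 0.0019 and E2F1 at -0.04. The sign for TFDP1 turned with RLE size factors, with DESeq2 and after the gene length correction. The MuvB, MYB and FOXM1 factors, which act on promoters with CHR elements, had a median of 0.04 over 7 genes. FOXM1, an activator of mitotic genes, had 0.07 (SE 0.05, edgeR adjusted p = 0.492), and RBBP4 had -0.02, with a positive sign when libraries were scaled by size alone or FPKM was used. Downstream, 29 genes for the ubiquitin ligases that destroy cyclins and their regulators had a median of -0.08, with 7 values above 0. UBE2C, the ubiquitin-conjugating enzyme of the anaphase-promoting complex, stood at 273, 293 and 270 CPM in the controls and at 253, 263 and 228 CPM with SRPK2. Its groups did not overlap, as for 20.1% of all tested genes, and the log2 fold change was -0.17 (SE 0.06, edgeR adjusted p = 0.224). SKP1, a ligase subunit, had -0.12 (SE 0.07).

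The other cyclins, many of which act in transcription, had a median log2 fold change of 0.01 over 17 tested genes of 19. The 2 that were not tested, CCNI2 and CCNP, had at most 11 reads in a library. CCNI, the most abundant, had a value of 0.0013, whose sign turned with RLE size factors, with DESeq2, with no filter and after the gene length correction. CCNK, the cyclin of CDK12 and CDK13, had 0.05, and its sign turned after the gene length correction.

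Among markers of the phases in which the cyclins peak, 0 genes passed in the main fit, and each list held values of either sign. Of 16 genes of G1 and S phase 2 lay above 0, with a median log2 fold change of -0.04, beside 0.00 for all tested genes. The replication helicase gene MCM7 had -0.06 (SE 0.05) and RRM2, a subunit of ribonucleotide reductase, -0.07 (SE 0.05). For both genes the groups did not overlap, as for 20.1% of all tested genes. Of 15 tested genes of G2 and mitosis 11 lay above 0, with a median of 0.03. TOP2A, a topoisomerase of mitotic chromosomes, had 0.06 (SE 0.06) and TPX2, a spindle factor, 0.02 (SE 0.05). The lowest adjusted p on any of the 9 lists was that of GINS2, a replication factor gene named after its values were seen, at 0.196 (edgeR, log2 fold change -0.22, SE 0.07). By library, the median deviation of the G1 and S phase genes was 0.03, 0.03 and 0.002 with the empty vector, against -0.04, -0.0033 and -0.04 with SRPK2. That of the G2 and mitosis genes was -0.03, -0.0019 and 0.0003 with the empty vector, against 0.01, -0.02 and 0.06 with SRPK2. The groups overlapped for the G2 and mitosis genes. For the G1 and S phase genes they did not, but control replicate 3 and SRPK2 replicate 2 nearly met. The enzymes that set the phosphates on CDKs also had separate groups, at 0.03 to 0.05 with the empty vector against -0.07 to 0.0083 with SRPK2. No test was made on any of these lists or between them, and the part of these values in the cyclin results was not tested.

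**Figure D4:**
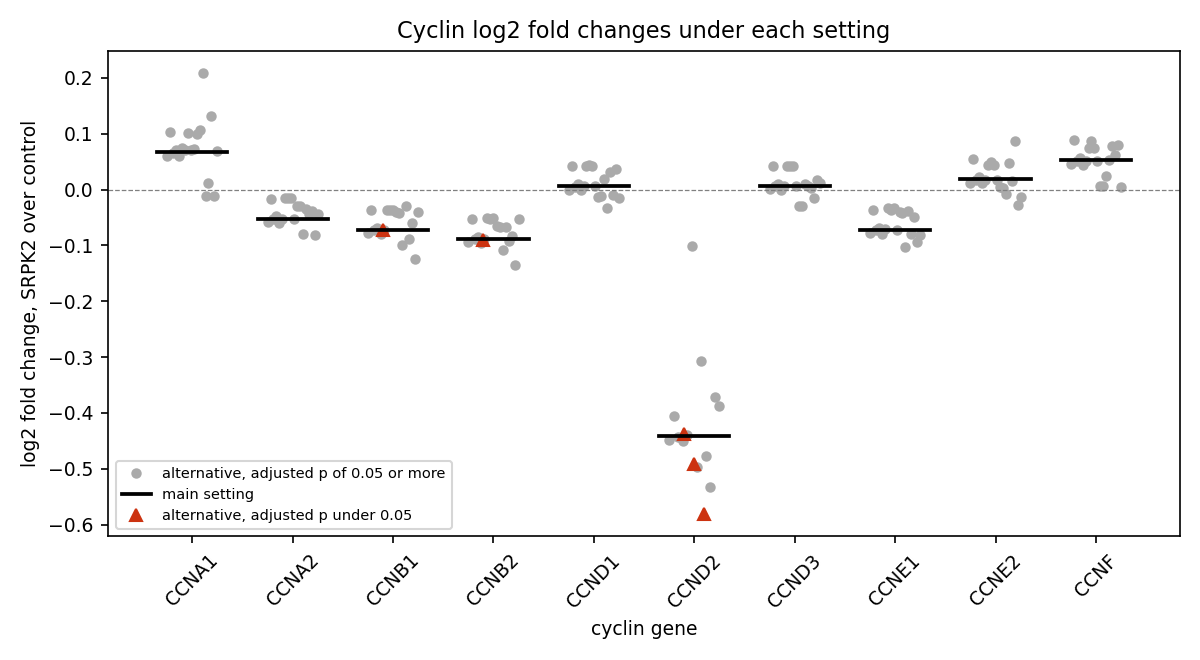
Log2 fold change of each cyclin under the main setting (black line) and under each alternative (grey circles, or red triangles where the adjusted p was under 0.05). CCND2 lies below 0 under every setting that could test it, while CCNA1, CCND1, CCND3 and CCNE2 have values on both sides of 0.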

How the data were processed

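The 6 RNA sequencing libraries were grouped by their titles. Per the submitters' processing notes, bcl2fastq, FastQC and HISAT2 were used, with the build GRCh38. Which tool counted the reads, with which strand setting and annotation, is not given in the sources used here. The authors deposited whole-number read counts for 29710 genes and FPKM values, rounded to 2 decimals, for 29256 genes.

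The fit used edgeR 4.0.16 (R 4.3.3) with TMM scaling, filterByExpr and a two-sided quasi-likelihood test on the group alone. Benjamini-Hochberg adjustment covered the 16515 tested genes, with a threshold of 0.05. An SE is the size of the log2 fold change divided by the root of F, and the 95% intervals come from the t distribution of that test. CPM values are TMM scaled, and FPKM was used to compare genes. Coordinates come from GENCODE 29. Between replicates the counts varied beyond sampling noise (chi-square per degree of freedom 4.74 to 16.7).

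The cyclins and gene lists were chosen with earlier results of these data known. Named are the cyclins, SRPK2, up to 4 called genes of a list or else its 2 most abundant, and for each cyclin of at least 5 CPM its 2 nearest genes. The alternatives tried were RLE factors, scaling by library size, testing every gene, testing genes with 5 CPM or more on average, DESeq2 1.42.0, voom and plain log2 FPKM (pseudocount 1 or 0.1, FPKM averaging 0.5 or more, or unfiltered) in limma 3.58.1, a replicate block, a loess correction for gene length (span 0.3, 16101 genes) without and with the block, and leaving out each library. Scripts were tested on simulated data.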

Additional observations from a re-analysis of the deposited data

How the results depend on the processing

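Over all genes the 75 calls became 997 with no filter on low counts, 133 with DESeq2, 18 with limma on log2(FPKM + 1) without a filter and 130 after the gene length correction, and ranged from 27 to 1403 when 1 library was left out. The 1403 came without SRPK2 replicate 2. The count of 0 cyclins became 1, CCND2, without SRPK2 replicate 2 (0 to 1 over the libraries left out), and CCND2 ranged from -0.58 to -0.31. The count over the pathway lists, 0 of 114, was 8 of 117 with no filter (6.84%, beside 3.36% of all genes) and 0 to 8 when 1 library was left out, with 8 of 114 without SRPK2 replicate 2 (7.02%, beside 8.37% of all genes). The cause was not tested.

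The groups share replicate numbers, and the deviations of same-numbered libraries had correlations of 0.0839, 0.230 and 0.171. These were not all above 0.1. The labels state no pairing, and the main fit used the group alone. Deviations were taken from each group's own mean, so positive correlations for some numbers force negative ones for others. Yet each library correlated best with its own number, and differently numbered libraries had correlations from -0.165 to -5.5e-05. A pairing thus remains possible, and the calls depend on it. With the replicate block 3899 genes (23.6%) were called, with 3 cyclins (CCNB1 at -0.073, CCNB2 at -0.090 and CCND2 at -0.44; edgeR adjusted p = 0.0379, 0.0356 and 0.0268) and 41 of 114 pathway genes (36.0%). With the block and the gene length correction 3249 genes (20.2%) were called, with 1 cyclin (CCND2 at -0.49, adjusted p = 0.00618) and 28 of 114 pathway genes (24.6%).

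Among the cyclins and the other named cell cycle genes, these signs turned. With RLE factors CCND1 was at -0.00015, TFDP1 at -0.0047 and CCNI at -0.0052. With DESeq2 CCND1 was at -0.00080, CCND3 at -0.00018, TFDP1 at -0.0053 and CCNI at -0.0058. After the gene length correction, without and then with the block, CCND1 was at -0.013 and -0.012, CCND3 at -0.030 and -0.030, TFDP1 at -0.00053 and -0.00045, CCNI at -0.0072 and -0.0073 and CCNK at -0.0074 and -0.0076. CCNI was at -0.00018 with no filter. RBBP4 was at 0.016 by library size alone, and at 0.015, 0.016 and 0.015 in limma on FPKM. With 1 library left out CCNA1 ranged from -0.011 to 0.21, CCND1 from -0.034 to 0.037, CCND3 from -0.015 to 0.018, CCNE2 from -0.027 to 0.088, CDC25B from -0.016 to 0.057, TFDP1 from -0.024 to 0.018 and CCNI from -0.027 to 0.021.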
